A study of Mus musculus with 8 samples.

Results

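Spinal cord cells were the 1000 cells that carried the combined cell type annotation Spinal cord among 28723 cells of chimeric mouse embryos. Of these, 228 were Eomes-KO cells, out of 8566, and 772 were WT host cells, out of 20157. All 1000 also carried the name Spinal cord in the original gastrulation atlas annotation, so the combined and original annotations picked the same cells. The label could not be checked against Sox2 and Pax6, which mark neural progenitors, or against Hoxb9 and Cdx4, which mark trunk and caudal levels, because only a table of annotations and quality measures per cell was analysed here, without gene counts.

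The chimeras were made from 4 independent clones of tdTomato+ ESCs, each carrying a CRISPR-Cas9 deletion that inactivates Eomes, injected into WT blastocysts of the C57BL/6 strain. Embryos were collected at about E8.5 in pools, each made with 1 clone, and dissociated cells were sorted by tdTomato into Eomes-KO (tdTomato+) and WT host (tdTomato−) fractions for droplet scRNA-seq, which gave 4 libraries per genotype. Eomes-KO cells therefore descended from cultured ESCs of a male line and WT host cells from the blastocyst. Without injected WT ESCs in this comparison, the loss of Eomes and the ESC origin cannot be told apart. Library names did not show which Eomes-KO and host libraries came from 1 pool, so libraries are named here by genotype and number of cells, and p-values measure the spread between these libraries.

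Eomes is a T-box TF of the early primitive streak that is needed for anterior mesoderm and definitive endoderm. The spinal cord is the trunk portion of the neural tube, formed in part from neuromesodermal progenitors (NMPs) at the caudal end of the embryo, while the brain arises from the anterior neural plate. Along its dorsoventral axis, dorsal progenitors lie near the roof plate and ventral progenitors near the floor plate.

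Libraries held 602 to 8133 cells and between 19370600 and 66414390 UMIs, and the number of spinal cord cells per library ranged from 26 to 305. Median UMIs over all cells ranged from 8901 to 32559.5 among Eomes-KO libraries and from 5124 to 11002 among WT host libraries. Between libraries, 80 cell barcodes were shared, and 6 spinal cord cells, 2 of them Eomes-KO, carried one of them.

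The first question was whether Eomes-KO cells contributed to spinal cord as often as host cells did. Spinal cord made up a mean of 3.02% ± 1.07 (SD, n = 4) of epiblast-derived cells among Eomes-KO libraries and 3.95% ± 0.465 (SD, n = 4) among WT host libraries, and the ranges overlapped. In the Eomes-KO libraries of 602, 1153, 3346 and 3465 cells, spinal cord was 4.33%, 2.78%, 1.73% and 3.23% of epiblast-derived cells. In the WT host libraries of 2414, 3791, 5819 and 8133 cells, it was 3.47%, 3.94%, 4.58% and 3.82%. The smallest Eomes-KO library thus held the second highest share of the 8, and the Eomes-KO library of 3346 cells the lowest. Exact 95% binomial intervals, which cover counting error only, ran from 2.85% to 6.27% in the library of 602 cells and from 1.32% to 2.24% in that of 3346 cells. The fitted log2 fold change was −0.42 (SE 0.35, 95% interval −1.16 to 0.32, adjusted p = 0.29 with edgeR's quasi-likelihood test and Benjamini-Hochberg adjustment over 33 types). In that fit 69.7% of the types passed the threshold, 48.5% lower and 21.2% higher in Eomes-KO cells, and the median log2 fold change over all types was −1.95. The value depended on scaling: leaving blood cells out of the denominator gave −0.86 (adjusted p = 0.038), DESeq2's ratio size factors gave −1.46 (adjusted p = 0.0096), and DESeq2's poscounts size factors gave 0.02 (adjusted p = 0.97). The median of the type-by-type changes in log2 fold change under these settings was −0.40, −0.91 and 0.60. With cells of doublet score under 0.25 only, edgeR gave 0.13 (adjusted p = 0.73), and the median of the type-by-type changes was 0.36.

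**Figure D1:**
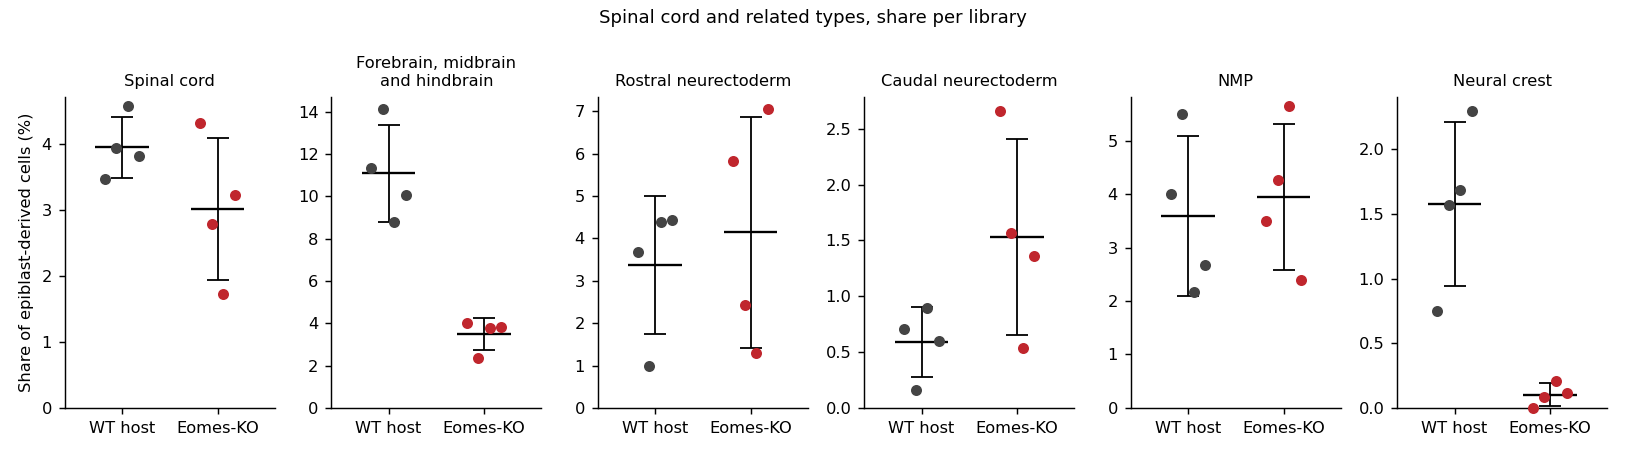
Share of epiblast-derived cells (%) that were spinal cord or a related type, with 1 panel and its own axis per type. Points are the 4 libraries of each genotype in order of cell number, the wide line is the mean and the whiskers are ± 1 SD; spinal cord shares overlapped, while every Eomes-KO library was below every WT host library for forebrain, midbrain and hindbrain and for neural crest.

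Ratios within a library do not depend on the denominator, so spinal cord was next set against 5 related types. Relative to caudal neurectoderm, the neural plate next to the posterior streak, spinal cord was less frequent in every Eomes-KO library than in every host library. Caudal neurectoderm, with 216 cells in all, was 2.66%, 1.57%, 0.54% and 1.36% of epiblast-derived cells among Eomes-KO libraries. Among WT host libraries it was 0.71%, 0.16%, 0.89% and 0.60%. Spinal cord shares overlapped, so the ratio reflects both types and is not by itself a deficit of spinal cord. The log2 ratio of spinal cord to caudal neurectoderm cells was 0.68, 0.81, 1.66 and 1.24 for Eomes-KO libraries, and 2.25, 4.51, 2.35 and 2.66 among WT host libraries. The groups did not overlap, with a mean of 1.10 ± 0.44 (SD, n = 4) against 2.94 ± 1.06 (SD, n = 4). The difference was −1.84 (two-sided exact permutation p = 0.029, the smallest that 4 against 4 allows, and 0.071 after Benjamini-Hochberg adjustment over the 5 ratios). With each library left out in turn, it ranged from −2.07 to −1.32. An edgeR fit of spinal cord within that pair of types, which models its share of the pair instead of the ratio, gave a log2 fold change of −0.32 (adjusted p = 0.016).

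Relative to neural crest, the migratory population that leaves the dorsal neural tube, spinal cord was more frequent in every Eomes-KO library than in every host library. Neural crest was 0% to 0.21% of epiblast-derived cells among Eomes-KO libraries and 0.75% to 2.29% among WT host libraries. Spinal cord shares overlapped, so this ratio is not by itself a gain of spinal cord. Eomes-KO libraries held 0, 1, 7 and 4 neural crest cells beside 26, 32, 58 and 112 spinal cord cells, and WT host libraries held 18, 59, 87 and 183 beside 83, 148, 236 and 305. With 0.5 cells added to each count, the log2 ratio was 4.44 ± 1.14 (SD, n = 4) against 1.42 ± 0.59 (SD, n = 4). The ratios did not overlap (two-sided exact permutation p = 0.029, 0.071 adjusted over the 5 ratios), and the edgeR fit of the pair gave 0.44 (adjusted p = 0.016). The library without a crest cell allows a crest share of up to 0.499% of its epiblast-derived cells, and those with few crest cells leave this ratio imprecise.

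Forebrain, midbrain and hindbrain cells outnumbered spinal cord cells in all 4 WT host libraries, with log2 ratios of spinal cord to brain of −1.71, −1.84, −0.94 and −1.40. In Eomes-KO libraries the ratios were 0.11, 0.24, −1.12 and −0.25. The Eomes-KO library of 3346 cells lay inside the host range and the other 3 above it, with a difference of means of 1.22 (two-sided exact permutation p = 0.057, 0.095 adjusted over the 5 ratios). The edgeR fit of that pair gave 0.72 (adjusted p = 0.035). Brain was 2.35% to 3.99% of epiblast-derived cells among Eomes-KO libraries and 8.79% to 14.13% among WT host libraries. This ratio too is therefore not by itself a gain of spinal cord. For rostral neurectoderm, the early anterior neural plate, the difference in log2 ratio was −0.67 (two-sided exact permutation p = 0.43), and for NMPs it was −0.62 (two-sided exact permutation p = 0.34), with overlapping libraries in both. Single libraries decide these values: the rostral difference was −0.15 without the host library of 3791 cells, and the NMP difference −0.18 without the Eomes-KO library of 3346 cells. Of all neural ectoderm cells (spinal cord, brain, both neurectoderms and neural crest), spinal cord was 24.9% ± 4.08 (SD, n = 4) in Eomes-KO libraries and 19.2% ± 2.30 (SD, n = 4) for host libraries (two-sided exact permutation p = 0.057).

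The extended atlas annotation, which covers later embryos and splits the neural tube more finely, gave the spinal cord cells 11 names. The names Dorsal spinal cord progenitors, with 385 cells, and Spinal cord progenitors, with 116 cells, together covered 50.1% of them. The general name Ectoderm, which states no level along the body axis, was given to 432 cells. Hindbrain names were given to 57 cells, 53 of them Ventral hindbrain progenitors, and the remaining 10 cells were spread over 5 names. By genotype, 63 Eomes-KO cells (27.6%) and 438 WT host cells (56.7%) carried a spinal cord name, and 161 Eomes-KO cells (70.6%) and 271 WT host cells (35.1%) were named Ectoderm.

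Ectoderm was the leading name in every Eomes-KO library. It covered 65.4%, 53.1%, 67.2% and 78.6% of spinal cord cells in the Eomes-KO libraries of 602, 1153, 3346 and 3465 cells. It covered 33.7%, 25.0%, 48.3% and 30.2% among WT host libraries of 2414, 3791, 5819 and 8133 cells. All Eomes-KO libraries were above all host libraries, by 4.8 percentage points between the nearest pair. With 17 of 32 cells, the exact 95% binomial interval of the Eomes-KO library of 1153 cells, from 34.7% to 70.9%, covered the value of the nearest host library. The means were 66.1% ± 10.4 (SD, n = 4) and 34.3% ± 10.0 (SD, n = 4), a difference of 31.8 percentage points (two-sided exact permutation p = 0.029, 0.038 adjusted over the 4 labels with 10 or more spinal cord cells and 0.083 adjusted over all 55 pairs of type and label). Such separation was common across types: in 34.5% of the 55 pairs the genotypes did not overlap, 23.6% with Eomes-KO lower and 10.9% with Eomes-KO higher. In an edgeR quasi-likelihood fit over all 55 pairs, chosen after the data were seen, the log2 fold change of Ectoderm within spinal cord was 0.97 (SE 0.23, Benjamini-Hochberg adjusted p = 0.0098), in a fit that called 38.2% of pairs, 27.3% lower and 10.9% higher.

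**Figure D2:**
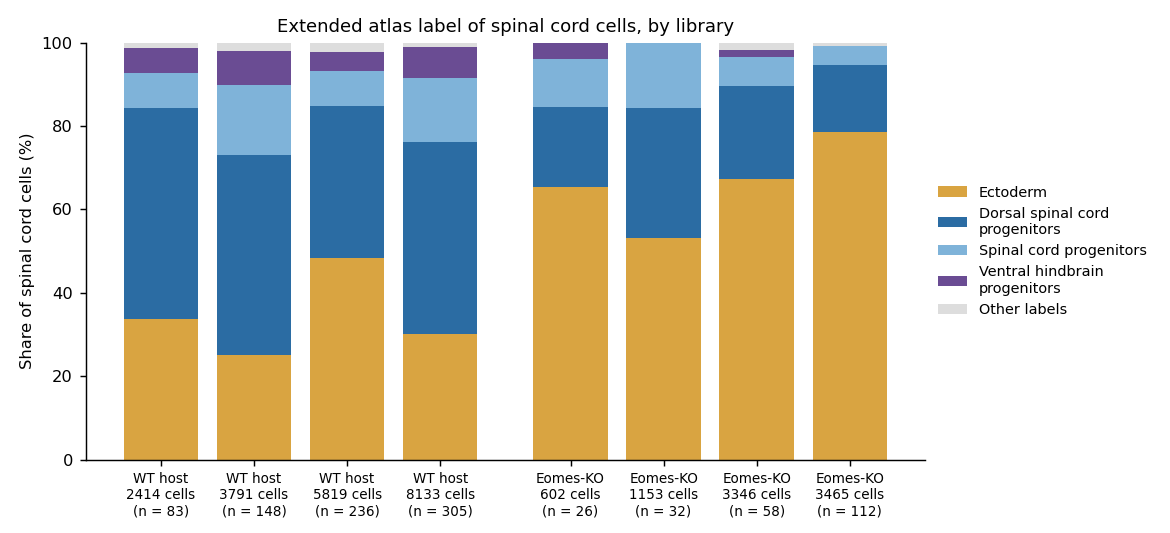
Extended atlas labels of spinal cord cells as stacked bars, 1 per library, in % of that library's spinal cord cells; each bar is named by genotype and all cells of the library, with n spinal cord cells. Ectoderm covers 53.1% to 78.6% of the bar in Eomes-KO libraries and 25.0% to 48.3% in WT host libraries.

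Dorsal spinal cord progenitors, the cells of the roof plate side, took the opposite direction. They were 19.2%, 31.2%, 22.4% and 16.1% of spinal cord cells among Eomes-KO libraries and 50.6%, 48.0%, 36.4% and 45.9% among WT host libraries. Every Eomes-KO library was below every host library. The means were 22.2% ± 6.54 (SD, n = 4) and 45.2% ± 6.17 (SD, n = 4), with a difference of −23.0 percentage points (two-sided exact permutation p = 0.029, 0.038 adjusted over the 4 labels and 0.083 over all 55 pairs). The edgeR fit over all pairs gave a log2 fold change of −1.10 (SE 0.24, Benjamini-Hochberg adjusted p = 0.0073).

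Ventral hindbrain progenitors, a name for cells of the neural tube just anterior to the spinal cord, were few in Eomes-KO spinal cord. They numbered 1, 0, 1 and 0 cells among Eomes-KO libraries and 5, 12, 11 and 23 among WT host libraries. The 0 counts allow a share of up to 9.38% in the library of 1153 cells and up to 2.68% in that of 3465 cells, so the first of them does not separate that library from the hosts. The exact 95% binomial intervals of the libraries of 602 and 3346 cells reached 19.6% and 9.24%. These 2 libraries were therefore not separated from the host shares of 4.66% to 8.11% by their counts either. Shares were 1.39% ± 1.83 (SD, n = 4) and 6.58% ± 1.55 (SD, n = 4) without overlap (two-sided exact permutation p = 0.029, 0.038 adjusted over the 4 labels and 0.083 over all 55 pairs). Pooled over libraries, the host share was 7.53 times the Eomes-KO share, with a 95% interval from 1.98 to 63.9 that covers counting error only and leaves out the spread between libraries. The edgeR fit over all pairs gave −2.75 (SE 0.74, Benjamini-Hochberg adjusted p = 0.015).

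Spinal cord progenitors, the name without a dorsal or ventral position, were 11.5%, 15.6%, 6.9% and 4.5% of spinal cord cells among Eomes-KO libraries and 8.4%, 16.9%, 8.5% and 15.4% among WT host libraries. These ranges overlapped, and the difference of −2.67 percentage points was within the spread (two-sided exact permutation p = 0.46). Since Ectoderm took a larger share in Eomes-KO libraries, the other names were also compared among the remaining cells. There, Dorsal spinal cord progenitors were 66.4% ± 8.08 (SD, n = 4) for Eomes-KO against 69.1% ± 5.55 (SD, n = 4) for host libraries (two-sided exact permutation p = 0.63). Spinal cord progenitors were 27.1% and 18.4% (two-sided exact permutation p = 0.17), and Ventral hindbrain progenitors 4.09% and 9.93% (two-sided exact permutation p = 0.14). No name separated the genotypes once Ectoderm cells were set aside, and the library of 602 cells then held 9 cells.

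The same names occur outside spinal cord, so they were also counted over all epiblast-derived cells. Dorsal spinal cord progenitors numbered 48 Eomes-KO and 354 WT host cells and fell by 1.54 on the log2 scale (SE 0.40, adjusted p = 0.0020 with edgeR's quasi-likelihood test over 69 extended labels). Ventral hindbrain progenitors, most of them within the brain annotation, numbered 49 and 500 cells and fell by 2.16 (SE 0.44, edgeR adjusted p = 0.00023). Spinal cord progenitors numbered 47 and 263 cells and fell by 1.20 (SE 0.49, edgeR adjusted p = 0.034). Ectoderm, with 734 and 1641 cells, had a log2 fold change of 0.06 (SE 0.39, edgeR adjusted p = 0.90). This fit called 73.9% of labels, of which more fell than rose: 63.8% of all labels were lower and 10.1% higher in Eomes-KO cells, with a median log2 fold change of −3.13, so a lower call was the common outcome. The call for Spinal cord progenitors was lost without the Eomes-KO library of 3465 cells (−0.86, adjusted p = 0.12), the host library of 3791 cells (−0.78, adjusted p = 0.12), the Eomes-KO library of 1153 cells (−1.19, adjusted p = 0.052) or the host library of 8133 cells (−1.29, adjusted p = 0.056). With TMM factors the calls for Dorsal spinal cord progenitors (−0.86, edgeR adjusted p = 0.083) and Spinal cord progenitors (−0.60, edgeR adjusted p = 0.24) were lost, while the median of the label-by-label changes was 0.67. With poscounts size factors, where that median was 1.29, the call for Ventral hindbrain progenitors was lost too (−0.92, DESeq2 adjusted p = 0.063) and Ectoderm passed the threshold as higher (1.26, DESeq2 adjusted p = 0.024). The values over all cells therefore depend on the scaling.

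Most cells named Spinal cord progenitors were not in spinal cord but in the NMP annotation, which held 29 Eomes-KO and 162 WT host cells of that name. They were 23.8%, 4.1%, 9.0% and 6.0% of NMPs among Eomes-KO libraries and 22.9%, 35.3%, 21.4% and 20.1% among WT host libraries. The Eomes-KO library of 602 cells lay within the host range and the other 3 below it (10.7% against 24.9%, two-sided exact permutation p = 0.11).

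The name Ectoderm was compared in rostral neurectoderm and brain in the same way. Caudal neurectoderm and neural crest, each with fewer than 10 cells in some library, were not compared on their own here or for mapped stage. Of the 216 caudal neurectoderm cells, 84 Eomes-KO and 97 WT host cells were named Ectoderm. In rostral neurectoderm it covered 92.1% ± 4.99 (SD, n = 4) of Eomes-KO and 94.2% ± 3.65 (SD, n = 4) of host cells (two-sided exact permutation p = 0.51). In forebrain, midbrain and hindbrain it covered 41.8% ± 16.3 (SD, n = 4) and 29.4% ± 3.11 (SD, n = 4) (two-sided exact permutation p = 0.23). There it was 25.0%, 33.3%, 46.5% and 62.4% among Eomes-KO libraries and 25.2% to 32.0% among host libraries. Every Eomes-KO library but that of 602 cells was thus above every host library in brain as well. The difference between genotypes in spinal cord exceeded that in rostral neurectoderm by 34.0 percentage points (two-sided exact permutation p = 0.029, 0.057 adjusted over the comparisons with these types). Rostral neurectoderm, at 85.7% to 97.7% Ectoderm over the 8 libraries, had no room for a rise of that size, which limits this comparison. Against brain the excess was 19.4 percentage points, with overlap between libraries (two-sided exact permutation p = 0.057).

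Each cell was also given the stage of its nearest atlas cells, from E7.75 to E8.5 in spinal cord. Per the study's methods, the atlas cells used for mapping reached no later than E8.5, so no later stage could be given. Eomes-KO spinal cord cells mapped earlier in all 4 libraries. The mean mapped stage was E8.18, E8.23, E8.21 and E8.15 among Eomes-KO libraries and E8.31, E8.35, E8.29 and E8.35 among WT host libraries. The groups did not overlap, with 8.19 ± 0.033 (SD, n = 4) against 8.33 ± 0.030 (SD, n = 4), a difference of −0.135 embryonic days (two-sided exact permutation p = 0.029, 0.057 adjusted over the pair of stage measures). Of the 11 types with 10 or more cells in every library, 18.2% had every Eomes-KO library earlier than every host library, spinal cord and surface ectoderm. In surface ectoderm the means were 8.17 ± 0.030 (SD, n = 4) and 8.27 ± 0.032 (SD, n = 4), a difference of −0.103 days (two-sided exact permutation p = 0.029). Over the 11 types the difference ran from −0.135 to 0.030 days, with the Eomes-KO mean the earlier one in most.

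The shift lay in the earliest and latest of the common stages. Cells mapped to E8.0 were 57.7%, 21.9%, 25.9% and 35.7% of spinal cord among Eomes-KO libraries and 9.6%, 3.4%, 16.9% and 5.2% among WT host libraries. Cells mapped to E8.5 were 30.8%, 18.8%, 12.1% and 8.0% among Eomes-KO libraries and 34.9%, 48.6%, 40.7% and 48.2% among WT host libraries. Neither stage overlapped between genotypes (two-sided exact permutation p = 0.029 for each, 0.057 adjusted over the 4 stages). Stage shares were computed for spinal cord only, so how often other types separate in this way is not known. E8.25 held 11.5%, 56.2%, 60.3% and 50% against 54.2%, 45.9%, 39.4% and 45.6%, and the library of 602 cells was the 1 library in which it was a minor stage.

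**Figure D3:**
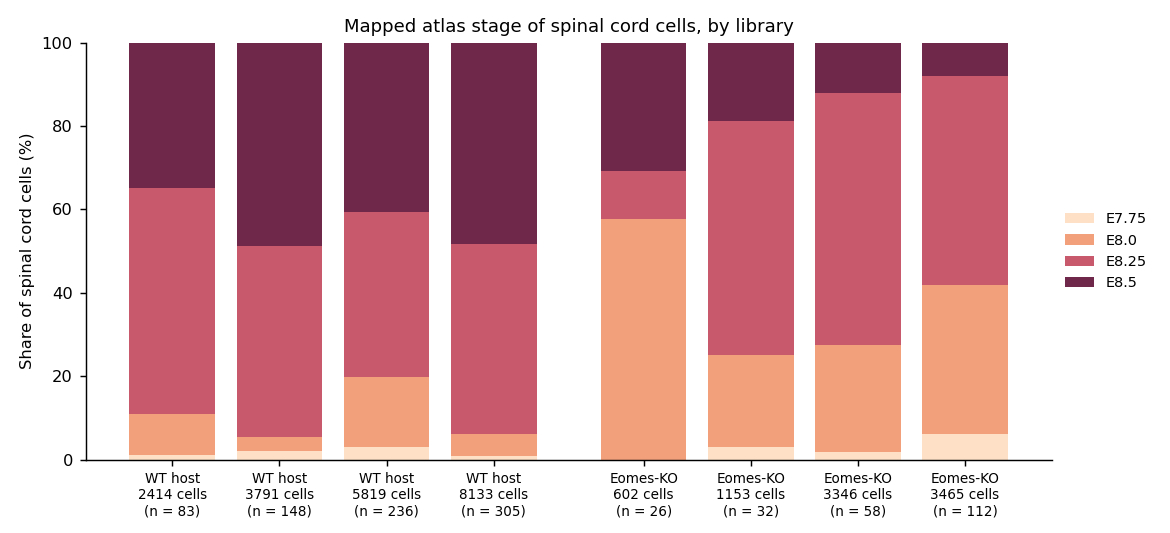
Mapped atlas stage of spinal cord cells as stacked bars, 1 per library, in % of that library's spinal cord cells; each bar is named by genotype and all cells of the library, with n spinal cord cells. E8.0 covers 21.9% to 57.7% of the bar in Eomes-KO libraries and 3.4% to 16.9% in WT host libraries, while E8.5 is smaller in every Eomes-KO library.

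In the related types the stage difference between genotypes was −0.051 days in forebrain, midbrain and hindbrain (two-sided exact permutation p = 0.14), −0.054 in rostral neurectoderm (two-sided exact permutation p = 0.29) and −0.020 in NMPs (two-sided exact permutation p = 0.66). Brain mapped to 8.375, 8.278, 8.256 and 8.263 among Eomes-KO libraries and to 8.324 to 8.353 among host libraries. NMPs mapped to 8.440, 8.301, 8.296 and 8.271 against 8.305 to 8.377. In both types every Eomes-KO library but that of 602 cells was earlier than every host library. Set against NMPs of the same library, spinal cord differed by −0.115 days more (two-sided exact permutation p = 0.029, 0.086 adjusted over the 3 types compared). The corresponding value was −0.085 against brain (two-sided exact permutation p = 0.086) and −0.081 against rostral neurectoderm (two-sided exact permutation p = 0.11). Against all other neural ectoderm pooled, spinal cord mapped 0.086 days later in Eomes-KO libraries and 0.055 days later for host libraries (two-sided exact permutation p = 0.46). The pool held relatively more brain cells in host libraries, where brain mapped to a mean of 8.34 and rostral neurectoderm to 8.01. Whether the make-up of the pool bears on the pooled comparison was not tested.

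**Figure D4:**
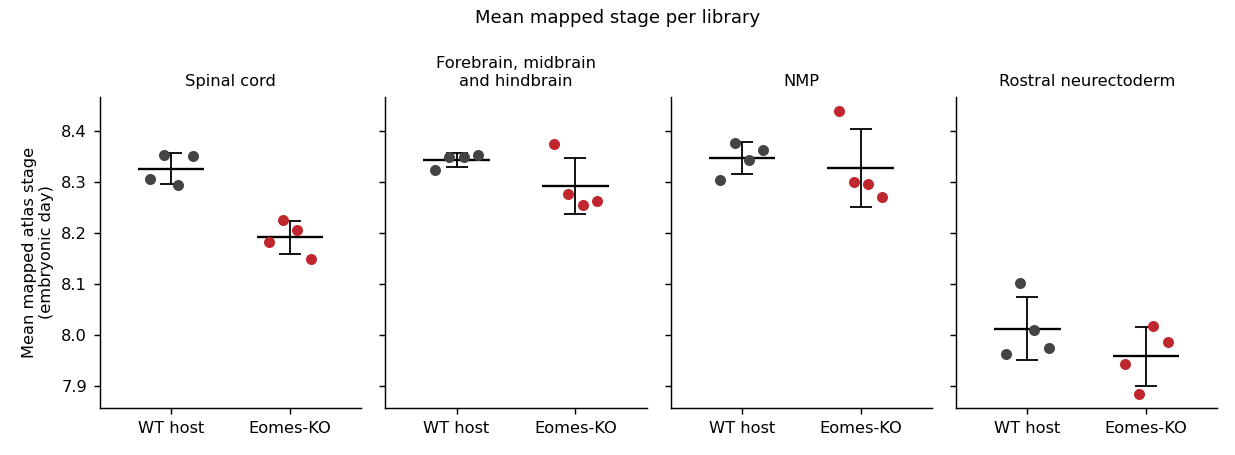
Mean mapped atlas stage (embryonic day) per library in spinal cord and 3 related types. Points are the 4 libraries of each genotype in order of cell number, the wide line is the mean and the whiskers are ± 1 SD. In spinal cord every Eomes-KO library was earlier than every host library. In brain and in NMPs this held for every Eomes-KO library but that of 602 cells, which was later than every host library. The difference of means was −0.135 days in spinal cord and −0.020 to −0.054 in these 3 related types. In surface ectoderm, which is not drawn, it was −0.103 days.

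Finer label and mapped stage were read from the same atlas neighbours and were not independent. All 385 Dorsal spinal cord progenitors, all 116 Spinal cord progenitors and all 53 Ventral hindbrain progenitors mapped to E8.25 or E8.5. Of the 432 Ectoderm cells, 23 mapped to E7.75, 142 to E8.0, 265 to E8.25 and 2 to E8.5. E8.25 was the 1 stage that held both Ectoderm and spinal cord names in number. Among cells mapped to E8.25, a subset chosen after the data were seen, Ectoderm was 63.9% ± 12.3 (SD, n = 3) for Eomes-KO against 52.6% ± 14.5 (SD, n = 4) for host libraries. The library of 602 cells was dropped there for having fewer than 10 such cells. The difference fell to 11.3 percentage points and the groups overlapped (two-sided exact permutation p = 0.34, with 0.057 the smallest possible). Dorsal spinal cord progenitors were 27.4% and 36.1% (two-sided exact permutation p = 0.34), and Ventral hindbrain progenitors were 0 of 112 Eomes-KO cells and 6 of 345 host cells at that stage.

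Label scores overlapped between genotypes. The score, the part of a cell's 15 nearest atlas neighbours carrying the name it was given, had a median of 0.80, 0.933, 0.933 and 0.733 among Eomes-KO libraries and 0.933, 0.933, 0.80 and 0.933 among WT host libraries for the cell type (two-sided exact permutation p = 0.71). It separated the genotypes, with Eomes-KO lower, in 9.09% of the 11 types. Its value followed the finer name: the median over cells was 0.667 among Ectoderm cells and 1 among Dorsal spinal cord progenitors, in both genotypes. The extended label's score was 0.817 ± 0.058 (SD, n = 4) for Eomes-KO against 0.717 ± 0.064 (SD, n = 4) for host libraries (two-sided exact permutation p = 0.11). The stage score was 0.642 and 0.683 (two-sided exact permutation p = 0.40). Spinal cord cells whose neighbours all carried the name were 23.5% ± 8.26 (SD, n = 4) of Eomes-KO and 38.3% ± 6.76 (SD, n = 4) of host libraries (two-sided exact permutation p = 0.057). The nearest atlas cells were 182 different cells for Eomes-KO and 573 for host spinal cord, of which 72 were common, 39.6% of the first set and 12.6% of the second. These sets came from 228 and 772 pooled cells, and the smaller set limits how high the second percentage could be. No overlap between libraries of the same genotype was computed, so the percentages do not measure a difference between genotypes.

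Depth differed between libraries and moved in part with genotype. Median UMIs per spinal cord cell were 43243, 22631, 19405 and 8967 among Eomes-KO libraries and 7963, 10201, 10246.5 and 4976 among WT host libraries. The Eomes-KO library of 3465 cells lay within the host range and the other 3 above it (two-sided exact permutation p = 0.086). Median genes detected were 4491 ± 1335 (SD, n = 4) and 2716 ± 516 (SD, n = 4) (two-sided exact permutation p = 0.086). Mitochondrial UMIs were 1.72% and 1.64% (two-sided exact permutation p = 0.57), ribosomal UMIs 27.4% and 26.2% (two-sided exact permutation p = 0.14), and the doublet score 0.184 and 0.220 (two-sided exact permutation p = 0.34).

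The Eomes-KO library of 3465 cells, with a median depth in the host range, had the highest Ectoderm share of all, at 78.6%. Split at its median UMIs after the data were seen, it held 67.9% Ectoderm among shallower and 89.3% among deeper cells. Deeper cells had the higher share in 6 libraries, and the lower share in the Eomes-KO library of 1153 cells and the host library of 2414 cells. The part of depth in the genotype difference was not tested. Within a window of 10000 to 25000 UMIs, which left 3 libraries per genotype with at least 10 cells, Ectoderm was 71.5% ± 22.4 (SD, n = 3) for Eomes-KO against 31.2% ± 19.0 (SD, n = 3) in host spinal cord. The difference of 40.3 percentage points was larger than over all cells, but the wider spread let the groups overlap (two-sided exact permutation p = 0.20, with 0.10 the smallest possible). The mean mapped stage differed by −0.150 days in that window without overlap (two-sided exact permutation p = 0.10), and the window did not equalise depth or the doublet score. Median UMIs in it were 16972 for Eomes-KO libraries and 11923 for host libraries, and the doublet scores were 0.168 and 0.327. With cells of doublet score under 0.25 only, the Ectoderm difference was 29.7 percentage points without overlap (two-sided exact permutation p = 0.057, the smallest that 3 against 4 allows).

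**Figure D5:**
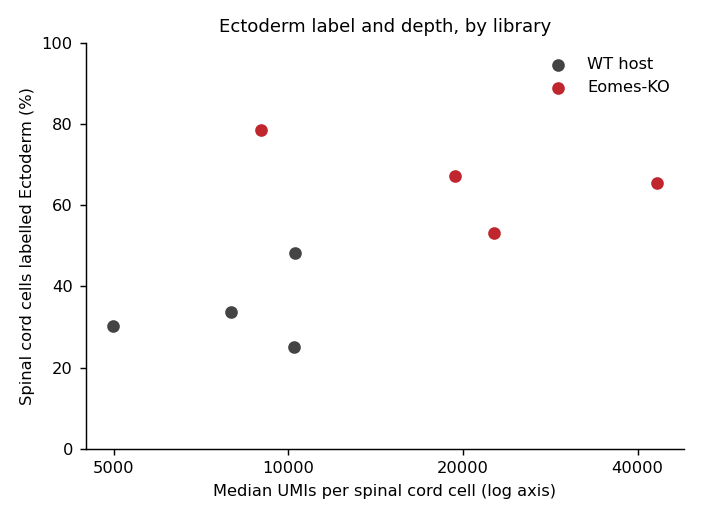
Share of spinal cord cells labelled Ectoderm (%) against the median UMIs per spinal cord cell (log axis), 1 point per library. The Eomes-KO point at 8967 UMIs lies among the host depths, 4976 to 10246.5, and at 78.6% above the host shares of 25.0% to 48.3%.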

How the data were processed

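The deposited file was a table of 28723 cells, without gene counts. Per the study's methods, the authors ran Cell Ranger 6.0.1 against mm10 plus a tdTomato sequence (the submitters' processing notes name the same tool and build), filtered cells on reads, genes, mitochondrial and ribosomal content, and removed cells with a doublet score over 0.5. They mapped each library to a gastrulation atlas by mutual nearest neighbours and gave each cell the commonest label of its 15 nearest atlas cells. The deposited columns used were UMI and gene counts per cell, percent of mitochondrial and ribosomal UMIs, label scores (the fraction of the 15 neighbours), and the doublet score. The filters bound the depth of the cells kept, and the labels depend on the atlas. The study's text gives larger totals of retained cells for both genotypes than the table holds, and the reason is not given in the sources used here.

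Here cells were counted per library, with tdTomato status as genotype. Abundance was tested with edgeR 4.0.16 (R 4.3.3) quasi-likelihood fits on cells per type, for types with at least 10 cells, with epiblast-derived cells as library size and no further scaling. Shares, ratios (0.5 cells added), mean stages and medians per library were compared by two-sided exact permutation tests in scipy 1.17.1, over 70 arrangements, for libraries with at least 10 spinal cord cells. Adjustment was by Benjamini-Hochberg within each family, with a threshold of 0.05. DESeq2 1.42.0 and limma 3.58.1 served as alternatives. The study's model has a pool term, which was not used because library names do not give the pool. All pairs of libraries of 1 genotype differed in type counts beyond sampling noise (chi-square over types, p at most 8.12e-16). Named were spinal cord, the 5 types of the ratios, and every label carried by at least 10 spinal cord cells. Surface ectoderm was named outside that rule. The scripts were tested on simulated data. Members, labels and tests were chosen with earlier results of these data known.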

Additional observations from a re-analysis of the deposited data

Results flagged for a closer look

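Among 4 libraries of 1 genotype, a single library stood apart from the other 3 by Dixon's 95% criterion in 3 of the 62 groups of libraries screened, and chance gives this in about 1 in 20 groups. The log2 ratio of spinal cord to rostral neurectoderm was 1.99 in the WT host library of 3791 cells, above −0.08, 0.06 and −0.21 in the other host libraries. The median cell type score was 0.80 in the WT host library of 5819 cells and 0.933 in the other host libraries; this score moves in steps of 1 neighbour in 15, so ties among the other 3 meet the criterion by themselves. Forebrain, midbrain and hindbrain made up 2.35% of epiblast-derived cells in the Eomes-KO library of 1153 cells and 3.80% to 3.99% in the other Eomes-KO libraries.

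The genotype difference in spinal cord differed from that in another type in 2 comparisons at an unadjusted p under 0.05, and in neither after adjustment. The comparisons screened were mean mapped stage against 3 types and against pooled other neural ectoderm, and the Ectoderm share against rostral neurectoderm and brain. For mean mapped stage, spinal cord minus NMPs was lower in Eomes-KO libraries by −0.115 embryonic days (two-sided exact permutation p = 0.029, 0.086 adjusted over 3 types). For the share labelled Ectoderm, spinal cord minus rostral neurectoderm was higher in Eomes-KO libraries by 34.0 percentage points (two-sided exact permutation p = 0.029, 0.057 adjusted over the types compared). Rostral neurectoderm was 85.7% to 97.7% Ectoderm over the 8 libraries.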

How the results depend on the processing

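Outside of leaving out libraries, 114 alternative values were computed for 24 results. Of these, 90 kept their direction and side of the threshold, 13 lost the call, 6 gained one and 5 reversed. Among the reversed values 1, Spinal cord progenitors over all cells, was called before. The 90 include a setting of at least 1 spinal cord cell per library, which repeats the main values because every library held 26 or more. The 13 include settings with fewer than 4 libraries in an arm. Both counts therefore hold outcomes fixed in advance and do not measure robustness. Causes were not tested. No paired analysis was possible because library names do not show the embryo pool. Spinal cord abundance reversed with poscounts size factors (0.0204) and with a doublet score under 0.25 (0.13), and passed the threshold with ratio size factors (−1.46) and without blood cells in the denominator (−0.86). In edgeR fits of pairs, the share of spinal cord against brain (0.72), caudal neurectoderm (−0.32) and neural crest (0.44) passed. Within spinal cord, the differences for Ectoderm, Dorsal spinal cord progenitors and Ventral hindbrain progenitors were 40.3, −30.3 and −6.39 percentage points at 10000 to 25000 UMIs, 29.7, −19.0 and −6.51 at a doublet score under 0.25, and 11.3, −8.65 and −1.92 among cells mapped to E8.25; with fewer than 4 libraries in an arm the exact test could not pass. Over all cells, poscounts gave 1.26 for Ectoderm, now past the threshold, −0.32 for Dorsal spinal cord progenitors, 0.0409 (reversed) for Spinal cord progenitors and −0.92 for Ventral hindbrain progenitors, and TMM gave −0.86 and −0.60 for the dorsal and unpositioned names, so that these lower calls were lost. Spinal cord minus other neural ectoderm reversed when the E8.5 share replaced the mean stage (−1.76 percentage points), as did the mitochondrial percent at a doublet score under 0.25 (−0.0946).

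With each library left out in turn, the ranges were −0.62 to −0.22 for abundance, 27.6 to 36.4 for Ectoderm, −26.0 to −20.9 for Dorsal spinal cord progenitors and −6.01 to −4.68 for Ventral hindbrain progenitors within spinal cord, −1.52 to −0.78 for Spinal cord progenitors and −0.22 to 0.27 for Ectoderm over all cells, −0.147 to −0.121 for stage, and −0.0046 to 0.192 for mitochondrial percent. The differences in log2 ratio ranged from −0.89 to −0.15 for rostral neurectoderm and from −0.89 to −0.18 for NMPs. The number of cells limits the small libraries most, where 26 and 32 spinal cord cells stand behind each share.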

Other observations

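Within libraries, the Ectoderm share of spinal cord cells was set beside depth by splitting each library at its median UMIs, a split chosen after the data were seen and not tested. In the Eomes-KO library of 602 cells, Ectoderm was 38.5% of the 13 shallower cells and 92.3% of the 13 deeper cells, and the mean mapped stage was E8.31 and E8.06. In the Eomes-KO library of 3465 cells it was 67.9% and 89.3% of 56 cells each. The other 6 libraries showed differences in both directions: the deeper cells were lower in the Eomes-KO library of 1153 cells (50% against 56.2%) and in the WT host library of 2414 cells (29.3% against 38.1%), and higher in the remaining 4, by at most 10.2 percentage points.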
